A study of Mus musculus with 15 samples.

Results

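The Hox genes of the mouse kidney were followed over 3 ages. The set held every gene name that begins with Hoxa, Hoxb, Hoxc or Hoxd and goes on with a number, which gave 39 of the 33058 gene names with a sense transcript. Of these, 35 were protein-coding genes, with 11 in the HoxA cluster, 9 in HoxB, 7 in HoxC and 8 in HoxD. The other 4 were noncoding genes on the opposite strand, namely Hoxa11os, Hoxb3os, Hoxb5os and Hoxd3os1. Other Hox genes were not analysed here. RNA of the whole kidney came from 15 male mice of the strain C57BL/6 (C57BL/6J in the methods), with 5 mice at 3 months (3M), 5 at 12 months (12M) and 5 at 24 months (24M) of age and 1 library per mouse. The question of the study was which coding and noncoding RNAs of the kidney differ with age. The titles of all samples begin with 3M, and ages were taken from the age label. The labels describe removal of ribosomal RNA and a strand-keeping kit, whereas the methods describe capture on oligo(dT) beads, so the kind of library is not settled.

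Each gene value was the sum of the FPKM (fragment number divided by transcript length in kilobases and by library size, so that levels of different genes can be compared) of its annotated transcripts and of the transcripts assembled on the same strand. The libraries held between 5.03 and 8.03 aligned Gb, from 5.03 to 6.13 Gb at 3 months, 5.84 to 8.03 Gb at 12 months and 6.07 to 7.33 Gb at 24 months. Kidney markers were high in every mouse. The summed level of 7 proximal tubule genes was between 1759 and 2157 FPKM and that of 4 genes of the loop of Henle between 918 and 1222 FPKM. Markers of adrenal cortex, which lies against the kidney, summed to at most 3.25 FPKM. In bulk tissue, fewer cells of a type and less RNA per cell cannot be told apart.

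Hox genes encode homeodomain transcription factors that give cells of the embryo their position along the body axis. In mammals they lie in 4 clusters, and genes with the same number in different clusters are paralogs that descend from a common ancestor. Within a cluster the genes with low numbers lie at the 3′ end and are used in anterior parts of the body, and those with high numbers lie at the 5′ end and are used in posterior parts. The kidney forms from mesoderm of the trunk, and adult cells often keep the Hox code of the place where they arose.

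Hox transcripts were present at moderate levels in the adult kidney, and most came from the HoxB and HoxA clusters. Summed over the 35 coding genes, the level was 76.9 ± 10.6 FPKM (SD, n = 15), with a range of 60.1 to 100 FPKM. HoxB gave 28.5 ± 4.09 FPKM and 37.1% of this sum, and HoxA gave 24.9 ± 4.71 FPKM and 32.4%. HoxC (11.7 ± 3.70 FPKM) and HoxD (11.8 ± 3.24 FPKM) gave 15.2% and 15.4%. Both larger clusters were above both smaller ones in 15 of 15 mice. HoxB was above HoxA in 12 of 15 mice, whereas HoxC was above HoxD in 9 of 15, so the order of the latter pair was not fixed. Per gene the mean was 3.17 FPKM in HoxB, 2.26 in HoxA, 1.67 in HoxC and 1.48 in HoxD.

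**Figure D1:**
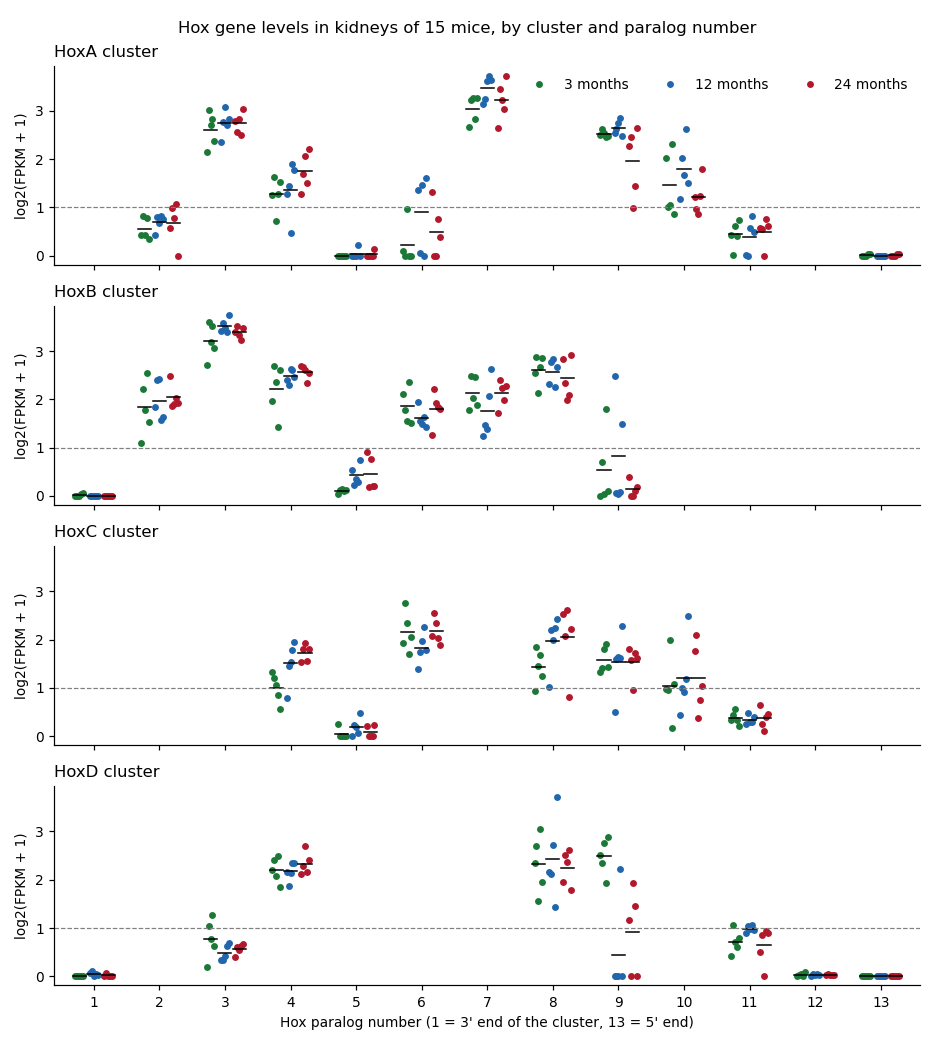
Level of 34 coding Hox genes, as log2(FPKM + 1), against its paralog number in the 4 clusters. Each point is 1 mouse, coloured by age, short lines are means of 5 mice, and the dashed line marks 1 FPKM. Genes numbered 12 and 13 lie at or near 0 in all mice, and so do Hoxb1, Hoxd1 and Hoxa5.

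Of the 35 coding genes, 19 had a mean of at least 1 FPKM, 9 lay between 0.1 and 1 FPKM and 7 lay under 0.1 FPKM. Among all 33058 gene names, 40.7% had a mean of at least 1 FPKM, against 54.3% of the coding Hox genes. In every mouse, 11 of the coding genes reached 1 FPKM, and 6 of these 11 belonged to HoxB. The median coefficient of variation between mice of the 19 genes was 36.7%, against 26.3% for the 9085 gene names with a mean of 1 to 10 FPKM.

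The 2 highest genes were Hoxb3 and Hoxa7, an order that rested on assembled transcripts, which gave 71.5% of the Hoxb3 level. With annotated transcripts alone Hoxb3 had 2.71 FPKM, below Hoxa7 (6.53), Hoxb4 (4.47), Hoxa9 (4.33), Hoxd8 (4.22) and Hoxb2 (3.00). Hoxb3, an anterior gene that takes part in patterning the hindbrain, had a mean of 9.52 ± 1.67 FPKM, and it varied least among the coding Hox genes, with a coefficient of variation of 17.6%. It was listed at 5.54, 11.1, 8.11, 10.5 and 7.37 FPKM at 3 months, at 9.68, 10.9, 10.1, 9.59 and 12.4 FPKM at 12 months and at 9.45, 10.4, 9.11, 8.41 and 10.2 FPKM at 24 months. The ages overlapped, and the lowest value was that of a 3-month-old mouse. Hoxa7, a central gene of the trunk, had a mean of 8.73 ± 2.28 FPKM. It was listed at 5.30, 8.33, 8.60, 6.08 and 8.58 FPKM at 3 months, at 7.77, 8.49, 11.3, 12.1 and 11.4 FPKM at 12 months and at 5.27, 9.97, 8.36, 7.21 and 12.2 FPKM at 24 months, with overlap between the ages. Hoxb3 was above Hoxa7 in 10 of 15 mice, and Hoxa7 was above the third gene, Hoxa3, in 13 of 15.

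Hoxa3, which in the embryo is needed for the parathyroid and thymus, had a mean of 5.61 ± 1.18 FPKM, and Hoxb8, a central gene, had 4.95 ± 1.26 FPKM. Hoxa3 had 5.25 ± 1.47 FPKM at 3 months, 5.82 ± 1.21 at 12 months and 5.76 ± 1.02 at 24 months, and Hoxb8 had 5.23 ± 1.21, 5.02 ± 1.07 and 4.59 ± 1.65 FPKM (n = 5 each). For neither gene did the difference between ages exceed the spread between mice. The next 3 genes could not be ordered. Hoxd8 had a mean of 4.48 ± 2.60 FPKM, Hoxb4 of 4.47 ± 1.05 FPKM and Hoxa9 of 4.42 ± 1.37 FPKM, and each was above the next in 6 of 15 mice. Hoxd4 followed with 3.78 ± 0.74 FPKM. By age, Hoxd8 had 4.34 ± 2.13, 5.24 ± 4.07 and 3.88 ± 1.17 FPKM, the widest spread coming from 1 mouse of 12 months at 12.1 FPKM, and Hoxd4 had 3.68 ± 0.81, 3.55 ± 0.59 and 4.09 ± 0.86 FPKM. In HoxC the highest genes were Hoxc6 with 3.27 ± 1.08 FPKM and Hoxc8 with 2.79 ± 1.42 FPKM. Hoxc6 had 3.60 ± 1.37, 2.62 ± 0.80 and 3.59 ± 0.87 FPKM at the 3 ages and Hoxc8 had 1.76 ± 0.66, 3.13 ± 1.28 and 3.49 ± 1.71 FPKM, with overlapping mice.

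The remaining genes above the limit were Hoxb7 with a mean of 3.17, Hoxb2 with 3.00, Hoxb6 with 2.46, Hoxd9 with 2.21, Hoxa10 with 2.03, Hoxc9 with 2.02, Hoxa4 with 1.89, Hoxc4 with 1.76 and Hoxc10 with 1.45 FPKM. From Hoxc8 down to Hoxc4, each gene exceeded the next in 6 to 9 of 15 mice, and neighbours in this order did not differ beyond their spread. Genes below the limit included Hoxd11 (0.751 FPKM), Hoxb9 (0.680), Hoxa6 (0.595), Hoxa2 (0.594), Hoxd3 (0.553), Hoxa11 (0.380), Hoxc11 (0.293) and Hoxb5 (0.279). The 7 lowest genes were Hoxc5 (0.0855 FPKM), Hoxd12 (0.0229), Hoxa5 (0.0169), Hoxd1 (0.0156), Hoxa13 (0.00529), Hoxb1 (0.00511) and Hoxd13 (0.00106).

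Several genes at the ends of the clusters were among the lowest. The 3 analysed genes numbered 12 and 13 (Hoxa13, Hoxd12 and Hoxd13), which pattern the most posterior body, the distal limb and the genital tract, summed to at most 0.0878 FPKM in any mouse. Hoxa13 was listed at 0 in 11 of 15 mice and Hoxd13 in 13 of 15. At the other end, Hoxb1, known for its part in the hindbrain, was listed at 0 in 13 of 15 mice and Hoxd1 in 9 of 15.

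Between these ends the level changed from number to number. The 3 genes numbered 3 summed to 15.7 ± 2.77 FPKM, which was 20.4% of all Hox FPKM, and the genes numbered 4, 7 and 8 summed to 11.9, 11.9 and 12.2 FPKM. The 3 genes numbered 5, by contrast, summed to 0.382 FPKM, with a range of 0.0711 to 1.07 FPKM. Hoxa5, known for its part in lung formation, was listed at 0 in 13 of 15 mice and Hoxc5 in 8 of 15, and Hoxb5 reached 0.879 FPKM at most. Of the FPKM of the 35 coding genes analysed, those numbered 1 to 4 gave 41.4%. Those numbered 5 to 8 gave 40.1% and those numbered 9 to 11 gave 18.5%. Hox genes that were not analysed are outside these shares, that of the genes numbered 3 included. All these sums follow the gene name that each transcript carries. Spans of some transcripts named Hoxa3, Hoxb3 or Hoxb6 hold the coding part of Hoxa5 or Hoxb5. With annotated transcripts alone Hoxb3 had 2.71 FPKM, and without transcripts that span several genes Hoxa3 had 0.553 FPKM.

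Hoxa11, Hoxc11 and Hoxd11 are needed together for the formation of the kidney from the metanephric mesenchyme. In the adult organ, their sum was 1.42 ± 0.48 FPKM (n = 15). Hoxd11 was listed at 0.332, 1.08, 0.627, 0.529 and 0.745 FPKM at 3 months, at 0.869, 1.05, 0.975, 1.08 and 0.955 FPKM at 12 months and at 0.412, 0.816, 0, 0.927 and 0.864 FPKM at 24 months. Hoxa11 lay between 0 and 0.758 FPKM, with 0.379 ± 0.253 FPKM at 3 months, 0.331 ± 0.328 at 12 months and 0.429 ± 0.255 at 24 months. Hoxc11 lay between 0.070 and 0.563 FPKM, with 0.306 ± 0.118, 0.269 ± 0.0823 and 0.303 ± 0.186 FPKM at these ages. Values of the 3 ages overlapped for all 3 genes.

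Sequences of 300 bases around the transcription start (250 before and 50 after it) were at hand for 21 of the 35 coding genes, in 23 windows, from RefSeq on GRCm38.p6. A Hox window held a median of 14 CG dinucleotides, with a range of 4 to 45, against a median of 7.00 over all 32851 windows. Some windows belong to a start that gave little of the gene's level, and 15 of the 23 lay at the start of the highest transcript of their gene, to within 100 bases. Of these 15, the 5 windows of genes with a mean of at least 1 FPKM had a median of 14, with a range of 4 to 20. The 6 windows of genes under 0.1 FPKM had a median of 29.0, with an overlapping range of 10 to 45. Windows of genes between these levels, Hoxa11, Hoxa2, Hoxa6 and Hoxd11, held 15, 9, 26 and 4, so the count did not rise steadily as the level fell. The windows of Hoxa9 and Hoxa5 are shown because they come from 1 cluster and from genes of different levels, and because each lies at the annotated start of the transcript that gave most of its gene's FPKM (82.0% and 100%). That of Hoxa9 (chr6:52227321-52227620, minus strand) held 4 CG dinucleotides, and that of Hoxa5 (chr6:52204538-52204837, minus strand) held 29. A count of 4 is the lowest of any Hox window here, so the pair does not stand for other genes of these levels. Capitals mark CG.
Hoxa9: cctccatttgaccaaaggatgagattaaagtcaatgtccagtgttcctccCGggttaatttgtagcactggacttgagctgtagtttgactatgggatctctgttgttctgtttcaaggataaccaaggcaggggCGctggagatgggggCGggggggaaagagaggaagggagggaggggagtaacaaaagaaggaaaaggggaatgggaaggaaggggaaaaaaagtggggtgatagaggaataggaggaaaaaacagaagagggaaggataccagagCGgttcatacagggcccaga
Hoxa5: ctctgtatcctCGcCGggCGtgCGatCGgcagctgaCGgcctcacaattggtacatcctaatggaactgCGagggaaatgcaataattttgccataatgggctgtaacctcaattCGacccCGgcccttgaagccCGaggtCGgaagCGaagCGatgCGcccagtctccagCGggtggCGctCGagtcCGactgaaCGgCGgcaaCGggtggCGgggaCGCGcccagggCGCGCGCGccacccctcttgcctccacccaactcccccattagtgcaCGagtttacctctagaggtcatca
The letters TATAAA, on either strand, were in 4 of the 23 Hox windows (17.4%) and in 13.6% of all windows. Those 4 were 1 of Hoxa10 and those of Hoxb8, Hoxd4 and Hoxd13. These are counts of letters in the windows and no measure of methylation or binding.

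The division of reads between neighbouring Hox genes is uncertain, because the spans of many transcripts, introns included, cross from 1 gene into the next. Of the 106 sense transcripts that carried the name of a coding Hox gene, 36 were assembled from the reads and gave 36.9% of the Hox FPKM. The span of 18 transcripts, under 8 gene names, held the coding part of 2 or more Hox genes, and these gave 18.7% of the Hox FPKM. A span here includes introns, and whether these coding parts are exons of the transcript was not determined. A transcript named Hoxc5, for example, has a span that holds 4 Hox coding parts but a length of only 615 bases without introns. The share of such transcripts was 94.6% for Hoxb6, 90.1% for Hoxa3, 70.3% for Hoxd4, 69.8% for Hoxc5, 36.9% for Hoxb8, 24.3% for Hoxc6, 17% for Hoxb3 and 5.85% for Hoxd3. An assembled transcript named Hoxb3, of 5 exons and 4265 bases, had a span over the coding parts of Hoxb6, Hoxb5, Hoxb4 and Hoxb3. It was above 0 in all 15 mice with a mean of 1.61 ± 0.41 FPKM. Without the transcripts that span several genes, Hoxa3 had a mean of 0.553 FPKM and Hoxb6 of 0.132 FPKM. For Hoxa3 this also left out its highest annotated transcript, which had a mean of 2.24 FPKM. With annotated transcripts alone, Hoxc9 had 0.0440 FPKM and Hoxd4 0.227 FPKM, and the sums of the clusters were 19.2 FPKM for HoxA, 13.7 for HoxB, 7.59 for HoxC and 8.01 for HoxD. HoxB was then below HoxA, so their order depended on the assembled transcripts.

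All 4 opposite-strand genes were above 0 in every mouse. Hoxd3os1, which overlaps the annotated spans of Hoxd3, Hoxd4 and Hoxd8, had the highest level of the 4 with 4.74 ± 1.51 FPKM. It exceeded Hoxd3 in 15 of 15 mice by a median ratio of 11.7. The Hoxd3 value leaves out transcripts named Hoxd4 whose span holds the Hoxd3 coding part, the highest with a mean of 1.42 FPKM. Hoxb3os, which overlaps Hoxb2 and Hoxb3, had 4.32 ± 1.58 FPKM and stayed below Hoxb3 in 15 of 15 mice, at a median ratio of 0.418. Hoxb5os had 1.04 ± 0.35 FPKM and exceeded Hoxb5 in 15 of 15 mice by a median ratio of 6.18. The Hoxb5 value likewise leaves out transcripts named Hoxb3 or Hoxb6 whose span holds the Hoxb5 coding part. Hoxa11os had 0.304 ± 0.231 FPKM and exceeded Hoxa11 in 6 of 15 mice. The sources used here do not state that strand was used in estimating the FPKM, so reads of a gene and of its opposite-strand partner cannot be told apart with certainty.

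One transcript of the set was classed as antisense, of 1372 such transcripts in all. It was a single exon of 4723 bases on the plus strand (chr11:96294073-96298795, GRCm38), named after Hoxb5os because it lies opposite to that gene. It therefore lies on the strand of the HoxB genes themselves, inside the annotated span of Hoxb6 and before its coding part. At 3 months it was listed at 3.79, 0, 4.53, 5.94 and 0 FPKM, at 12 months at 0, 1.49, 0.656, 0 and 0 FPKM, and at 24 months at 0.514, 6.41, 5.49, 4.63 and 3.22 FPKM. Its mean was 2.44 FPKM, and it was at 0 in 5 of 15 mice, 3 of them aged 12 months. A further 5 transcripts lay in introns of Hoxa10 (2), Hoxc5, Hoxc10 and Hoxd3os1. Each was listed at 0 in 11 or 12 of 15 mice, and their highest value was 2.30 FPKM. None of the 11929 circular RNAs of the series had a Hox gene as host.

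MicroRNA genes lie inside the Hox clusters, and their mature forms are known to act on Hox transcripts. MicroRNAs were not measured in these libraries. The mature sequences are shown, from RefSeq on GRCm38.p6 with the seed (bases 2 to 8) in capitals, because the transcripts that cross their hairpins were among those measured. Mir10a and Mir10b share a seed, and so do Mir196a-1, Mir196a-2 and Mir196b.
mmu-miR-10a-5p: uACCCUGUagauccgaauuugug
mmu-miR-10b-5p: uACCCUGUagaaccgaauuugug
mmu-miR-196a-5p: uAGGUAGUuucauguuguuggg
mmu-miR-196b-5p: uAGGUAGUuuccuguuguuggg
The hairpin of Mir10a (chr11:96317165-96317274) lay within 3 assembled transcripts named Hoxb3 or Hoxb6, with means of 3.19, 1.61 and 0.489 FPKM, while the transcript annotated as Mir10a itself was listed at 0 in 14 of 15 mice. That of Mir10b (chr2:74726070-74726137) lay within the spans of 7 Hoxd4 transcripts and 1 Hoxd3 transcript, of which the highest had a mean of 1.42 FPKM. The Mir196a-1 hairpin (chr11:96265164-96265265) lay within assembled transcripts named Gm53, the highest with 3.20 FPKM and a range of 2 to 5.25 FPKM. It also lay within assembled transcripts named Hoxb8, with means of 1.78 and 0.0462 FPKM. By contrast, the transcripts over Mir196b and Mir196a-2 had means of at most 0.166 FPKM. Whether a hairpin is exonic or intronic in an assembled transcript was not determined.

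The 7 letters complementary to the miR-196 seed, ACTACCT, were found on the sense strand of the longest annotated 3′ UTR of 9 of the 35 coding Hox genes (25.7%), against 6.10% of 20945 genes. Median lengths of the UTRs were 966 and 956 bases. Among these 9 were Hoxa4, Hoxa5, Hoxa7, Hoxa9, Hoxb1, Hoxb6, Hoxb7 and Hoxc8. The letters ACAGGGT, complementary to the miR-10 seed, were in 4 Hox genes (11.4%), among them Hoxa3, Hoxb3 and Hoxd1, against 12.5% of all. Hoxa7 held 4 matches to miR-196 in a UTR of 1219 bases, the most of any Hox gene. The 4 are shown in the order in which they occur, with the match in capitals, followed by the miR-10 matches of Hoxb3 and Hoxa3.
Hoxa7, chr6:52215400-52215422: aggcacagccaaaatACTACCTa
Hoxa7, chr6:52215363-52215385: gagaggcactcccaaACTACCTa
Hoxa7, chr6:52215231-52215253: caaaccatgatcaatACTACCTa
Hoxa7, chr6:52215210-52215232: tactactagccctaaACTACCTa
Hoxb3, chr11:96347287-96347309: tgacttaacgtgaaaACAGGGTa
Hoxa3, chr6:52169653-52169675: actctttgataagaaACAGGGTa
Levels of the genes with a match to either seed ran from Hoxb3 at 9.52 FPKM to Hoxb1 at 0.00511 FPKM.

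Age was compared next, each pair of ages with limma on log2(FPKM + 1) over all gene names. The 3 comparisons share mice, and their values are given side by side without a test between them. No Hox gene had an adjusted p under 0.05. For 24 against 3 months this was 0 of 39, with 1.22% of all 31755 gene names called. For 12 against 3 months it was 0 of 39, with 0.250% of all called, and for 24 against 12 months 0 of 38, with 0.00310% of all called. At an unadjusted p under 0.05 there were 5 of 39 Hox genes (12.8%) for 24 against 3 months, against 14.9% of all, 6 of 39 (15.4%) for 12 against 3 months, against 14.3% of all, and 3 of 38 (7.89%) for 24 against 12 months, against 6.43% of all. These shares were near those of all genes.

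The median log2 fold change of the Hox genes was 0.04 for 24 against 3 months, 0.09 for 12 against 3 months and 0.01 for 24 against 12 months. Over all genes it was 0.02, 0.02 and -0.0013. Over all genes with a mean of 1 to 10 FPKM it was 0.09, 0.10 and -0.01 in the same order. The sums of the clusters overlapped between ages. HoxB held 27.3 ± 6.31 FPKM at 3 months, 29.6 ± 2.74 at 12 months and 28.7 ± 2.80 at 24 months (n = 5 each). HoxA held 22.5 ± 2.36, 28.4 ± 4.66 and 23.8 ± 5.18 FPKM, HoxC 9.97 ± 2.50, 11.8 ± 5.23 and 13.2 ± 2.76 FPKM, and HoxD 14.2 ± 2, 11 ± 4.11 and 10.2 ± 2.12 FPKM at the same ages.

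**Figure D2:**
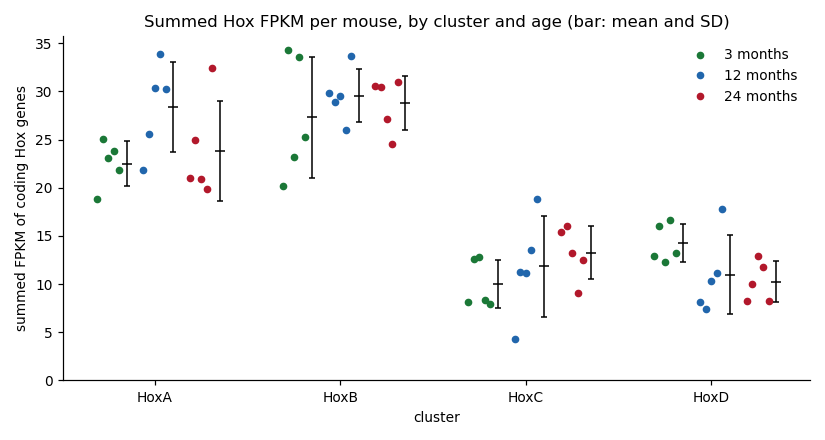
FPKM summed over the coding genes of each cluster, on a linear axis from 0, by age. Each point is 1 mouse and bars give the mean and SD of 5 mice. HoxA and HoxB lie above HoxC and HoxD in every mouse, and the ages overlap in each cluster.

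**Figure D3:**
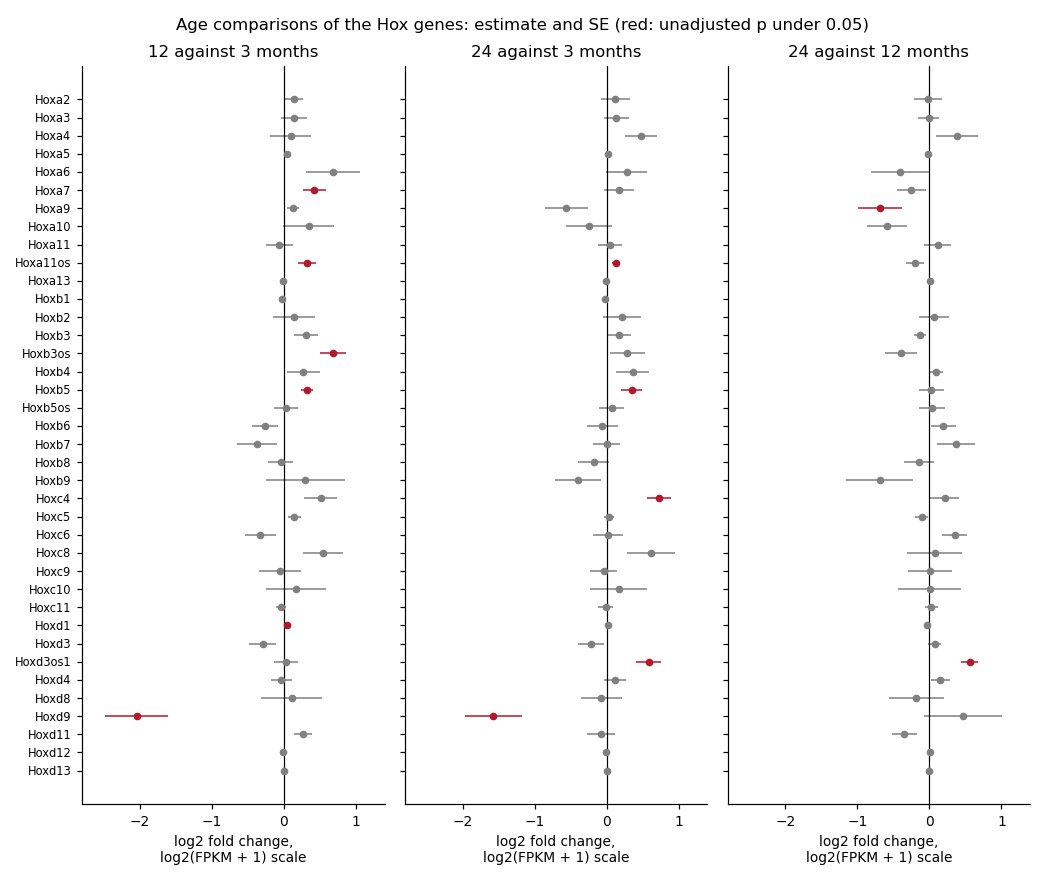
Log2 fold change of 38 of the 39 genes with its standard error in the 3 age comparisons, positive where the older mice were higher. Genes with an unadjusted p under 0.05 are red, and none of them had an adjusted p under 0.05. Hoxd9 lies farthest from 0 in both comparisons with 3 months.

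Hoxd9, a posterior gene that acts in the hindlimb and lumbar region, had the largest differences from 3 months. It was listed at 4.72, 4.10, 5.74, 2.80 and 6.39 FPKM at 3 months, at 0, 0, 0, 3.64 and 0 FPKM at 12 months and at 1.23, 0, 2.83, 1.75 and 0 FPKM at 24 months. All 5 young mice had at least 2.80 FPKM, while 6 of the 10 older mice were at 0 and the others reached at most 3.64 FPKM. The log2 fold change was -2.04 (SE 0.44, adjusted p = 0.0853) for 12 against 3 months and -1.57 (SE 0.40, adjusted p = 0.0940) for 24 against 3 months. For 24 against 12 months, where mice at 0 stand on both sides, Hoxd9 was not among the genes with an unadjusted p under 0.05. The 12-month-old mouse numbered 20 stood alone at 3.64 FPKM. Each mouse was left out in turn, and Hoxd9 passed the adjusted limit only without this one (-2.49, adjusted p = 0.00463 by limma). All other mice of 12 months are at 0, so this p follows from leaving out the value that opposes the difference. It adds no support to the comparison of all mice.

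A single annotated transcript carries the name Hoxd9 (chr2:74697727-74700208, GRCm38, plus strand). The 2 assembled transcripts at this place, named Gm28309 and Gm14396 after noncoding genes of the HoxD cluster, begin before it and end at the same place to within 5 bases, so they share its 3′ end. In the 4 mice of 12 months at 0, their sum was still above 0. Together they held between 0.913 and 3.41 FPKM at 3 months, 0.708 and 3.63 FPKM at 12 months and 0.991 and 3.94 FPKM at 24 months, and these ranges overlapped. Summed over the whole assembled locus, which also holds Hoxd11, the level was 7.62 ± 1.31 FPKM at 3 months, 3.90 ± 2.61 at 12 months and 4.43 ± 2.12 at 24 months. The same test across all loci gave the locus a log2 fold change of -0.93 (adjusted p = 0.172) for 12 against 3 months and -0.74 (adjusted p = 0.2) for 24 against 3 months. A listed 0 can come from how reads were divided between transcripts that share bases, and their part in the result was not tested. Transcripts of neighbouring genes that were not analysed here can also share reads with this locus.

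**Figure D4:**
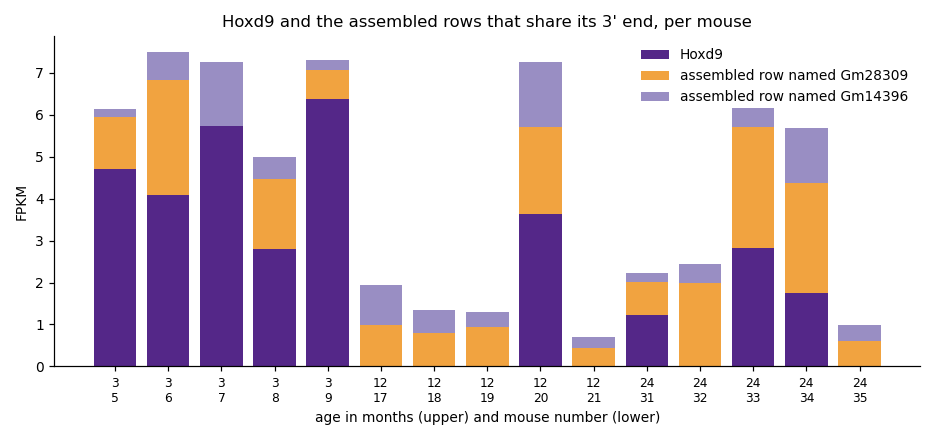
FPKM of Hoxd9 and of the 2 assembled transcripts that share its 3′ end, stacked for each of the 15 mice on a linear axis from 0. Hoxd9 is present in all 5 mice of 3 months, in 1 of 12 months and in 3 of 24 months, while the stacked assembled transcripts are above 0 in every mouse.

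Hoxc4 was the gene with the smallest adjusted p for 24 against 3 months. It belongs to the anterior part of the HoxC cluster and is known from lymphoid cells. It was listed at 1.5, 1.3, 1.07, 0.796 and 0.467 FPKM at 3 months, at 0.730, 1.75, 1.91, 2.46 and 2.84 FPKM at 12 months and at 1.88, 2.49, 2.79, 1.93 and 2.47 FPKM at 24 months. Every 24-month-old mouse was above every 3-month-old one, and the log2 fold change was 0.73 (SE 0.16, adjusted p = 0.0683). One assembled transcript gave 61.1% of the Hoxc4 level, and with annotated transcripts alone the log2 fold change was 0.35 with an adjusted p of 0.679. Beside this, 4 leukocyte markers summed to between 1.31 and 5.14 FPKM at 3 months, 4.12 and 9.27 FPKM at 12 months and 4.42 and 9.37 FPKM at 24 months, all 4 of them above 0 in every mouse, and their part in the result was not tested.

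Hoxb5 was low at every age. It was listed at 0.025, 0.0848, 0.11, 0.0711 and 0.0896 FPKM at 3 months, at 0.447, 0.168, 0.278, 0.222 and 0.666 FPKM at 12 months and at 0.879, 0.144, 0.696, 0.15 and 0.16 FPKM at 24 months. All older mice were above all young ones, with an adjusted p of 0.148 at 12 months and 0.296 at 24 months. Hoxa7 had 7.38 ± 1.57 FPKM at 3 months, 10.2 ± 1.93 at 12 months and 8.60 ± 2.64 at 24 months, and its ages overlapped (12 against 3 months: log2 fold change 0.42, SE 0.16, adjusted p = 0.281).

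Hoxa9, a posterior gene known from blood progenitors, was listed at 4.64, 5.13, 4.85, 4.48 and 4.61 FPKM at 3 months, at 4.81, 5.12, 5.71, 6.17 and 4.56 FPKM at 12 months and at 3.86, 4.51, 0.975, 1.71 and 5.21 FPKM at 24 months. The mice of the first 2 ages lay close together, and the lowest values were those of 2 mice of 24 months (24 against 12 months: log2 fold change -0.68, SE 0.30, adjusted p = 0.776). Hoxd1 was listed at 0 in all 5 mice of 3 months and above 0 in 4 of 5 mice of 12 months. It reached only 0.0741 FPKM there (12 against 3 months: log2 fold change 0.05, SE 0.02, adjusted p = 0.246). At 24 months it was at 0 in 3 of 5 mice. Libraries held 5.03 to 6.13 Gb at 3 months and 5.84 to 8.03 Gb at 12 months, and the part of depth was not tested.

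Among the opposite-strand genes, Hoxd3os1 had its highest mean, 6.33 ± 1.12 FPKM, at 24 months. It was listed at 6.14, 4.20, 3.42, 3.15 and 2.89 FPKM at 3 months, at 3.84, 3.25, 3.96, 4.01 and 4.67 FPKM at 12 months and at 5.27, 5.41, 6.35, 6.54 and 8.07 FPKM at 24 months. Mice of 24 months were all above those of 12 months (log2 fold change 0.56, SE 0.12, adjusted p = 0.581), and 1 young mouse overlapped with them (24 against 3 months: 0.59, SE 0.17, adjusted p = 0.151). Its partner Hoxd3 was not among the genes with an unadjusted p under 0.05 in any comparison. Hoxb3os had 3.16 ± 0.88 FPKM at 3 months, 5.62 ± 1.19 at 12 months and 4.19 ± 1.66 at 24 months (12 against 3 months: 0.68, SE 0.18, adjusted p = 0.137). Hoxa11os was listed at 0.0974 to 0.235 FPKM at 3 months and at 0.256 to 1.04 FPKM at 12 months, without overlap (0.32, SE 0.13, adjusted p = 0.294), and for 24 against 3 months its log2 fold change was 0.12 (SE 0.05, adjusted p = 0.239).

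**Figure D5:**
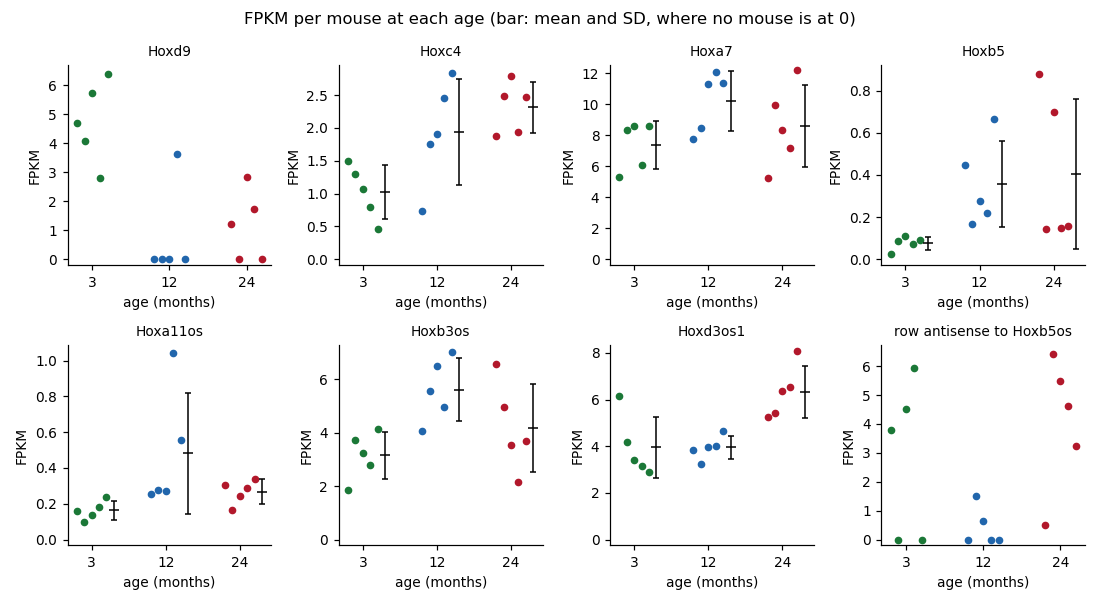
FPKM per mouse at 3, 12 and 24 months for 7 genes with an unadjusted p under 0.05 in an age comparison and for the transcript antisense to Hoxb5os, each on its own linear axis. Bars give mean and SD of 5 mice, and they are left out for Hoxd9 and the antisense transcript because some mice are at 0. Hoxd9 lies highest at 3 months, Hoxd3os1 lies highest at 24 months, and the antisense transcript lies lowest at 12 months.

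Single transcripts gave no call either. With limma over all transcripts, 0 of 134 Hox transcripts passed the adjusted limit for 24 against 3 months (0.0192% of all transcripts passed), 0 of 133 for 12 against 3 months (0.00481% of all) and 0 of 136 for 24 against 12 months (0.00559% of all). At an unadjusted p under 0.05 there were 9 (6.72%), 11 (8.27%) and 5 (3.68%), against 7.90%, 7.46% and 4.47% of all transcripts. The antisense transcript had a log2 fold change of 1.74 for 24 against 12 months (SE 0.45, unadjusted p = 0.00332, adjusted p = 0.838 by limma), and its adjusted p was 0.739 for 24 against 3 months and 0.730 for 12 against 3 months.

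Cell type markers also differed in level between ages, and their part in the Hox values was not tested. The summed level of 5 markers of stroma and mesangium was between 22.8 and 49.9 FPKM at 3 months, 51.5 and 78.4 FPKM at 12 months and 39.4 and 61.4 FPKM at 24 months. For 4 markers of intercalated cells of the collecting duct these ranges were 22.6 to 31.1, 18 to 22.1 and 16.5 to 19.8 FPKM. All 5 and all 4 markers had a mean of at least 1 FPKM.

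Genes inside and beside the clusters covered a wide range of levels. Beyond the 5′ end of HoxA, Hottip was listed at 0 in 13 of 15 mice, and beyond that of HoxD, the homeobox gene Evx2 was at 0 in 14 of 15. Leaving out the Hox genes themselves, the 2 highest genes inside or beside a cluster were widely expressed genes that flank it. Calcoco1, beside HoxC, had 16.3 ± 3.39 FPKM, and Mtx2, beside HoxD, had 8.98 ± 1.52 FPKM. Inside HoxA, the noncoding genes on the plus strand, opposite to the Hox genes, lay between 0.0142 and 1.69 FPKM. Hotair, a noncoding RNA of the HoxC cluster, had a mean of 0.0433 FPKM and was at 0 in 3 of 15 mice. Of a list of 18 noncoding RNAs of the Hox clusters, 11 were analysed and 4 of these had a mean of at least 1 FPKM, 3 of them being Hoxb3os, Hoxb5os and Hoxd3os1 and the fourth Hoxaas3 with 1.54 FPKM. None of this list, which holds the 4 opposite-strand genes, passed the adjusted limit in any comparison, and its median log2 fold changes were 0.07 for 24 against 3, 0.03 for 12 against 3 and -0.03 for 24 against 12 months.

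Hox proteins bind DNA together with homeodomain proteins of the Pbx, Meis and Pknox families. Of 9 such cofactors, 8 had a mean of at least 1 FPKM, among them Meis2 with 14.5 ± 2.95 FPKM. For 24 against 3 months 1 of the 9 rose and none fell, where 1.22% of all genes were called. Their median log2 fold change was 0.20, beside 0.02 over all genes and 0.09 over genes with a mean of 1 to 10 FPKM. At an unadjusted p under 0.05, 3 were higher and 1 was lower, against 14.9% of all genes. The one that rose was Meis3, from 0.615 ± 0.145 to 1.62 ± 0.35 FPKM (log2 fold change 0.69, SE 0.12, adjusted p = 0.0346). The one lower was Pknox1, at 4.11 ± 0.95 against 6.48 ± 0.48 FPKM (-0.57, SE 0.13, adjusted p = 0.0736), a gene named after its values were seen. For 12 against 3 months, 0 of 9 passed and Meis3 stood at 1.43 ± 0.39 FPKM (0.58, SE 0.13, adjusted p = 0.102), and for 24 against 12 months 0 of 9 passed, with Meis2 having the smallest p (adjusted p = 0.747). The medians of these comparisons were 0.24 and -0.03.

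Polycomb proteins keep Hox genes silent and Trithorax proteins keep them active. None of 22 Polycomb genes and none of 12 genes of Trithorax proteins and H3K27 demethylases passed the adjusted limit in any of the 3 comparisons. At an unadjusted p under 0.05 there were 4, 3 and 1 of the 22 and 2, 4 and 1 of the 12 for 24 against 3, 12 against 3 and 24 against 12 months, where 14.9%, 14.3% and 6.43% of all genes had such a p. Among Polycomb genes, 20 of 22 had a mean of at least 1 FPKM, and Ezh1 (16.0 ± 2.90 FPKM) stood above its paralog Ezh2 (2.94 ± 0.63 FPKM). The smallest p of these lists belonged to Cbx6 (adjusted p = 0.175) and Ash2l (adjusted p = 0.119) for 24 against 3 months, to Ezh2 (0.161) and Kmt2b (0.198) for 12 against 3 months, and, in the second list, to Kmt2a (0.747) for 24 against 12 months. Median log2 fold changes were 0.17, 0.09 and -0.01 for the Polycomb genes and -0.07, -0.02 and -0.04 for the other list, in the same order of comparisons.

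Retinoic acid switches on Hox genes in the embryo. Of 16 genes of its synthesis, breakdown and receptors, 10 had a mean of at least 1 FPKM and 0 passed the adjusted limit in any comparison, with 5, 4 and 2 at an unadjusted p under 0.05 (all genes: 14.9%, 14.3% and 6.43%). Rxrg, a receptor gene, was low, with 0.258 ± 0.105 FPKM at 24 months and 0.0635 ± 0.0374 FPKM at 3 months. It had the smallest p for 24 against 3 months (log2 fold change 0.24, adjusted p = 0.0712). Aldh1a2, which makes retinoic acid, had the smallest for 12 against 3 months, with 3.31 ± 0.92 against 1.29 ± 0.37 FPKM (0.91, SE 0.17, adjusted p = 0.0711). Rxrb had it for 24 against 12 months (adjusted p = 0.707). The median of the 16 genes was 0.15, 0.17 and -0.05 in the 3 comparisons.

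Of 19 genes known as partners of Hox genes in kidney development, 11 had a mean of at least 1 FPKM, among them Pax8 (29.6 ± 5.12 FPKM), which tubule cells keep, whereas Six2, the marker of embryonic nephron progenitors, had a mean of 0.00277 FPKM, and Eya1, which acts with the Hox proteins numbered 11 in the metanephric mesenchyme, had 0.0632 FPKM. None of the 19 passed the adjusted limit, with 0, 2 and 0 at an unadjusted p under 0.05 (14.9%, 14.3% and 6.43% of all genes), and the median log2 fold change was -0.01 in each comparison. Osr1 had the smallest p for 24 against 3 months (log2 fold change -0.30, adjusted p = 0.339). Of 8 genes of the Evx and ParaHox groups, which are relatives of the Hox genes, 2 were analysed. Evx2 and Cdx4 had means of 0.000748 and 0.0300 FPKM, and neither passed the adjusted limit, with Cdx4 at an adjusted p of 0.249 for 24 against 3 months.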

How the data were processed

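Reads were trimmed by the authors with Cutadapt and, by the methods, mapped with Bowtie2 and HISAT2, while the submitters' processing notes name TopHat2 and StringTie. StringTie assembled and merged the transcripts (GRCm38, Ensembl 88), and the authors deposited FPKM and mean coverage per transcript. The ratio of coverage and FPKM gave the aligned bases. A gene value was the sum of FPKM over sense classes (=, c, j and o). StringTie divides reads between overlapping transcripts, so neighbouring Hox genes are not measured independently. Ages were compared with limma 3.58.1 (trend, R 4.3.3) on log2(FPKM + 1), with the mice of both ages and all names above 0 in at least 1 of them, and p-values were adjusted by Benjamini-Hochberg over all of them; a fold change on this scale understates that of low genes. The test was tested on simulated data. The members and lists were chosen with earlier results of these data known. The genes were named, apart from a few results, in figures too, that are not reported here; values per mouse or per age were given for the 2 highest genes of each cluster, for those with an unadjusted p under 0.05, for Hoxa11, Hoxc11 and Hoxd11, and from each list the genes called or that with the smallest p. Annotation came from GENCODE M21 (GRCm38) and sequences from RefSeq. The deposited estimated counts of circular RNAs were searched for Hox hosts only. As alternatives, a pseudocount of 0.1, only genes with a mean of at least 0.1 FPKM, TPM, median-ratio scaling, 1 fit of all 15 mice, a robust prior, annotated transcripts alone, other limits, medians and the omission of each mouse were run. Sums over assembled loci and sums without transcripts that span several genes were added after seeing the data.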

Additional observations from a re-analysis of the deposited data

Results flagged for a closer look

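In 81 groups of 5 mice of one age, 3 single values stood apart from the other 4 mice by Dixon's test, and chance alone gives about 1 in 20 groups. Hoxd9 in the 12-month-old mouse numbered 20 had 3.64 FPKM, while the other 4 mice of that age were listed at 0. Hoxc10 in the 12-month-old mouse numbered 21 had 4.60 FPKM, with the others between 0.351 and 1.26 FPKM. Hoxb2 in the 24-month-old mouse numbered 31 had 4.60 FPKM, with the others between 2.61 and 3.10 FPKM.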

How the results depend on the processing

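The count of called Hox genes was 0 in each age comparison. With a filter on a mean of at least 0.1 FPKM it was 1 for 24 against 3 months, namely Hoxc4 (adjusted p = 0.0466). Fewer genes were tested there, and 411 of all 20987 were called. Over the other alternatives the adjusted p of Hoxc4 lay between 0.0669 and 0.679, the highest with annotated transcripts alone. Leaving out a mouse gave 0 to 1 called genes for 12 against 3 months and 0 in the other comparisons. The 1 was Hoxd9 without the 12-month-old mouse numbered 20, where 70 of all 31360 genes were called. An unadjusted p under 0.05 with an absolute log2 fold change above 1 gave 1 gene, Hoxd9, for 24 against 3 and for 12 against 3 months. The count over all genes at this limit is not given here. All 14 log2 fold changes with an unadjusted p under 0.05 kept their sign in all 251 alternatives. They were picked for their p, and the alternatives reuse the same mice, so the kept signs are no independent support. The number of Hox genes with a mean of at least 1 FPKM was 19 in all leave-one-out sets, 15 with annotated transcripts, 28 in TPM, 18 by medians and 25 at a limit of 0.5 FPKM. With annotated transcripts alone, the sums of HoxA, HoxB, HoxC and HoxD fell to 19.2, 13.7, 7.59 and 8.01 FPKM, and in TPM, which rescales each library to a fixed total, they were 108, 124, 50.5 and 51.2. Leaving out 1 mouse gave 24.3 to 25.3, 28.1 to 29.1, 11.2 to 12.2 and 11.4 to 12.1 FPKM. No paired analysis was possible because no replicate number of the labels is shared between ages. Depth in reads is unknown per gene for linear transcripts, and low levels such as those of Hoxb5 rest on the spread between 5 mice.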
